A study of Mus musculus with 9 samples.

Results

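Fas, the caspases Casp1, Casp4, Casp8 and Casp12, the apoptosis inhibitors Birc3 and Cflar and the TNF receptor gene Tnfrsf1b were followed across 9 bead arrays of enteric glia. All probes carrying one of these 8 gene symbols in the platform annotation were taken, which gave 15 of the 25687 probes used. Of these 15, 11 probes of 6 genes were above background on at least 1 array and were tested, beside 14786 probes in the whole series. The remaining 4 probes, both of Cflar and both of Tnfrsf1b, were above background on no array.

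The arrays formed 3 groups of 3, namely LPS-stimulated gliospheres, untreated gliospheres and GFAP-glia in vivo. All cells came from FVB mice carrying the hGFAP-eGFP transgene at postnatal day 7, whose fluorescent protein is under control of the promoter of the human GFAP gene, and were sorted from the longitudinal muscle and myenteric plexus of the small intestine by their fluorescence. Each replicate was 1 litter whose intestines were pooled. GFAP-glia in vivo were lysed straight after the sort. For the gliospheres, sorted cells were grown for 2 weeks with EGF and bFGF under hypoxic conditions and then passaged into free-floating spheres, which were divided for each litter between a dish given LPS (lipopolysaccharide of E. coli, 100 µg per ml) for 48 h and a dish given none. Gliospheres and GFAP-glia in vivo therefore differed in culture, growth factors and passage at once, and these cannot be told apart.

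Fas is a death receptor at the cell surface. When its ligand binds, it recruits the adaptor Fadd and the initiator caspase Casp8, which cleaves the executioner caspases. Cflar is a relative of Casp8 that blocks it in this complex, and Birc3 is a ubiquitin ligase that keeps TNF receptor signalling on its NF-kB branch and away from Casp8. Tnfrsf1b is the second TNF receptor, which lacks a death domain. Casp1 and Casp4 belong to another branch. Casp1 is activated in inflammasomes and processes the precursors of IL-1ß and IL-18, whereas mouse Casp4, also known as caspase-11, binds intracellular LPS and cleaves gasdermin D. Casp12 is an inflammatory caspase by sequence that has been tied to stress of the endoplasmic reticulum in mouse cells.

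Casp1, Casp4 and Casp12 lie next to each other on chromosome 9, with no annotated gene between Casp1 and Casp4 (1567 bases apart) or between Casp4 and Casp12 (8650 bases apart). As the levels of these neighbours differed between the groups, the 250 bases upstream of their start sites are shown, together with those of Fas (RefSeq, GRCm38.p6, plus strand in all 4 cases). They span chr9:5308599-5308848 for Casp4, chr19:34290409-34290658 for Fas, chr9:5345226-5345475 for Casp12 and chr9:5298267-5298516 for Casp1. For Casp12 the gene start used for the distance above, 5345442, lies before the start site used here. The last bases of its window are therefore within the annotated gene, and the second match marked in it spans that position. Capitals mark matches, on either strand, to an NF-kB consensus in Casp4 and to the gamma-activated site TTCNNNGAA in Fas and Casp12.
Casp4: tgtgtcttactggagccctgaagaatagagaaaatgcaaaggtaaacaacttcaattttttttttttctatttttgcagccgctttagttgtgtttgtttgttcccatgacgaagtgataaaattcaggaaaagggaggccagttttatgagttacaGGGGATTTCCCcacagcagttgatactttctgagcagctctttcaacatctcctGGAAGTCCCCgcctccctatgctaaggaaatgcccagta
Fas: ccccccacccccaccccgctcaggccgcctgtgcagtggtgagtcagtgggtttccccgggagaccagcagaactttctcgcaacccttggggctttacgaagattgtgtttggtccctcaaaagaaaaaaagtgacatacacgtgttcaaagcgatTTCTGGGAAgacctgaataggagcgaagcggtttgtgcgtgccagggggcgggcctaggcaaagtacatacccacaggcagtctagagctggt
Casp12: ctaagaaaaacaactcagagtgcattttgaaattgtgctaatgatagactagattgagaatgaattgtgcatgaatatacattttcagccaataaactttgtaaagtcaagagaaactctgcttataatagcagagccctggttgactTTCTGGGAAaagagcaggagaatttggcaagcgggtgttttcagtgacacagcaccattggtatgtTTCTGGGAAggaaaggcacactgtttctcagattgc
Casp1: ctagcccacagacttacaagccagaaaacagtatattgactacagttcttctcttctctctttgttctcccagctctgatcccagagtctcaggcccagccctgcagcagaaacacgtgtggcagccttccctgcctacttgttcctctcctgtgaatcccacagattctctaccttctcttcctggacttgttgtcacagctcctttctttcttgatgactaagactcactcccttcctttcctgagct
Casp4 held 3 matches to the NF-kB consensus, beginning 93, 92 and 39 bases before the start site, the first 2 overlapping each other. No such match was found upstream of the other 7 genes, and 7.01% of 27025 promoters of the same length held one. The gamma-activated site was matched upstream of Fas, Casp12 and Tnfrsf1b, against 7.18% of all promoters, and the same 9 letters TTCTGGGAA stood once in Fas and 2 times in Casp12. The interferon-stimulated response element, searched on both strands like the others, was matched only in Tnfrsf1b among the 8 genes, against 3.04% of all promoters. A match describes the letters of the sequence and says nothing of binding, which was not measured.

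The depth of an array is set by how far a probe stands above the negative control beads, for which the scanner software gives a detection p per probe and array. A probe was called above background at a detection p up to 0.05. Between 46.6 and 50.1% of all probes met this on each array. The median raw signal per array was 145.1 to 195.6 in LPS-stimulated gliospheres, 193.5 to 215.4 in untreated gliospheres and 123.7 to 164.5 in GFAP-glia in vivo. Levels below are background-corrected, variance-stabilised values on a log2 scale, and are compared within a probe only.

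**Figure D1:**
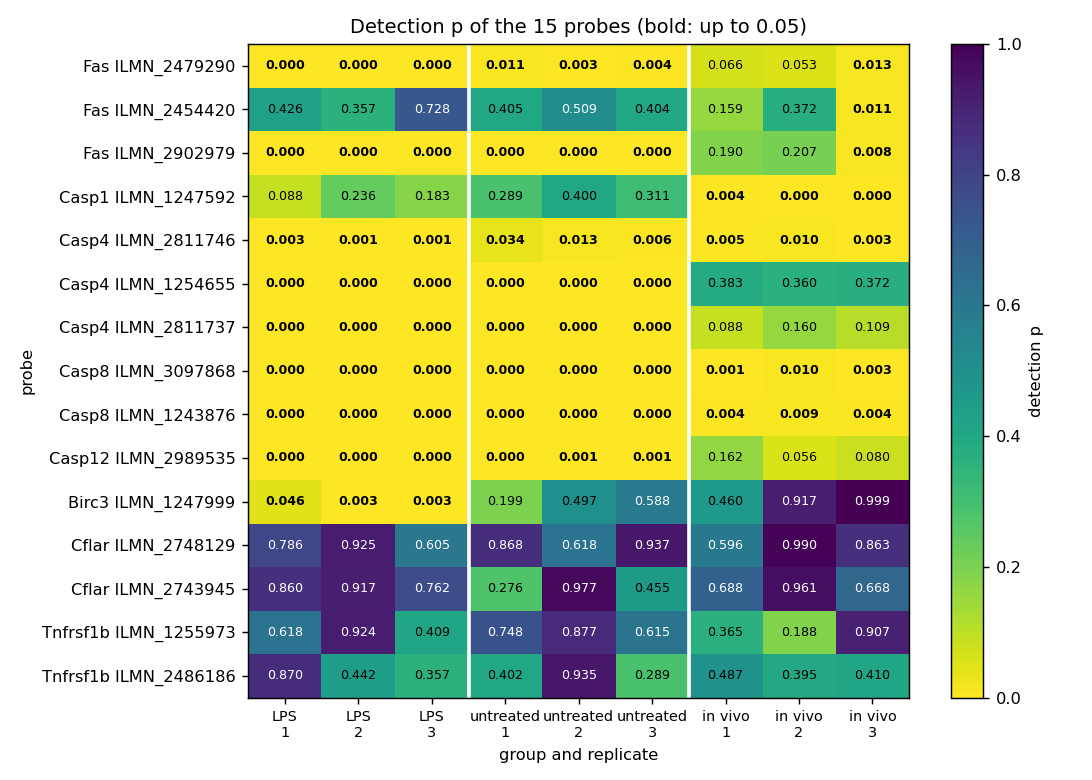
Detection p of the 15 probes (rows) on the 9 arrays (columns, group and replicate), with values up to 0.05 in bold. Casp8 was above background on every array, Casp1 only in GFAP-glia in vivo, and Cflar and Tnfrsf1b on no array.

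The genes fell into separate patterns of detection. Both Casp8 probes and the Casp4 probe ILMN_2811746 were above background on all 9 arrays. The other Casp4 probes and the Casp12 probe were above background on 3 of 3 arrays of LPS-stimulated gliospheres and 3 of 3 of untreated gliospheres, but on 0 of 3 of GFAP-glia in vivo. Casp1 showed the opposite order, with 0 of 3, 0 of 3 and 3 of 3 arrays in the same sequence of groups. Birc3 was above background on 3 of 3 arrays of LPS-stimulated gliospheres, 0 of 3 of untreated gliospheres and 0 of 3 of GFAP-glia in vivo. The 2 Cflar probes had detection p of 0.276 to 0.99 and raw signals of 82.8 to 172.1 over the 9 arrays, and the 2 Tnfrsf1b probes had detection p of 0.188 to 0.935 and raw signals of 104.0 to 183.3. Casp1, Casp12, Birc3, Fas ILMN_2454420 and the Casp4 probes ILMN_2811737 and ILMN_1254655 entered the test only through the groups in which they were above background. For Fas ILMN_2454420 this was 1 in vivo array alone. The direction of their difference from a group under the background was set by that filter, and its test is no independent support for it. No fold change is given for Cflar or Tnfrsf1b, since a level under the background gives only an upper bound.

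The first comparison asks what LPS did to these genes in cultured enteric glia. Fas and Casp4 rose with LPS, Fas 8.36-fold by the probe ILMN_2479290 and Casp4 6.03- and 5.69-fold by the probes ILMN_2811737 and ILMN_1254655. Casp8, Casp12 and Birc3 did not pass the test, and Casp1 was under the background in both groups. In all, 3 of the 11 tested probes were higher with LPS and 0 were lower (limma, Benjamini-Hochberg adjustment over all 14786 probes, threshold 0.05), beside 0.649% of all tested probes that were higher and 0.156% that were lower. Without overlap between the 2 groups, 9 of the 11 probes were higher in all LPS-stimulated gliospheres, beside 9.92% of all tested probes. Among the 9 were Casp1, under the background in both groups, and Birc3, which entered the test only through the LPS arrays. None of the 11 was lower in all LPS-stimulated gliospheres, beside 9.27%. At an unadjusted p under 0.05 stood 7 of the 11, Birc3 among them, beside 7.62% of all tested probes.

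Fas, the death receptor, was read by 3 probes. By ILMN_2479290 its log2 level was 8.68, 9.46 and 8.58 in LPS-stimulated gliospheres, against 5.48, 6.12 and 5.94 in untreated gliospheres. Every LPS array lay above every untreated array, and the difference within litters was 3.20, 3.34 and 2.64. The log2 fold change was 3.06 (SE 0.37, adjusted p = 0.00758). By ILMN_2902979 the log2 level was 10.44, 11.13 and 10.19 in LPS-stimulated gliospheres, against 8.11, 7.54 and 7.85 in untreated gliospheres. These ranges did not overlap either, but with a log2 fold change of 2.75 (SE 0.51) the adjusted p of 0.0527 missed the threshold. It passed in 9 of 13 other settings of the analysis, among them the authors' normalized values (adjusted p = 0.00152), quantile normalization (0.0338) and the 2 groups alone (0.016). The call was also gained without GFAP-glia in vivo replicate 1 (adjusted p = 0.0457) or replicate 3 (adjusted p = 0.00834), arrays that enter only the estimate of the spread. The third probe, ILMN_2454420, was above background in none of the gliosphere arrays, so the 3 Fas probes did not give the same answer. The place of each probe within the transcripts was not used here.

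Casp4, the sensor of intracellular LPS, was also read by 3 probes. By ILMN_2811737 the log2 level was 10.69, 11.52 and 10.84 in LPS-stimulated gliospheres, against 8.20, 8.61 and 8.47 in untreated gliospheres. By ILMN_1254655 it was 9.94, 10.56 and 9.58 in LPS-stimulated gliospheres, against 7.90, 7.29 and 7.36 in untreated gliospheres. Both probes were higher with LPS in 3 of 3 litters, by 2.49, 2.91 and 2.37 and by 2.04, 3.26 and 2.22. Their log2 fold changes were 2.59 (SE 0.28, adjusted p = 0.00508) and 2.51 (SE 0.30, adjusted p = 0.00779). The second of these calls was lost without untreated gliospheres replicate 3 (log2 fold change 2.43, adjusted p = 0.0532). The dimmer probe ILMN_2811746 had log2 levels of 6.28, 6.79 and 6.57 in LPS-stimulated gliospheres, against 4.86, 5.55 and 5.63 in untreated gliospheres. It was higher in all 3 litters too, but its log2 fold change of 1.2 (SE 0.29, adjusted p = 0.142) did not pass.

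Casp8, the initiator caspase of the Fas complex, had log2 levels of 8.85, 8.78 and 9.10 in LPS-stimulated gliospheres by ILMN_1243876, against 7.49, 8.11 and 7.91 in untreated gliospheres. By ILMN_3097868 it had 8.62, 8.46 and 8.4 in LPS-stimulated gliospheres, against 7.64, 8.0 and 7.62 in untreated gliospheres. In both probes the ranges of the 2 groups were apart and 3 of 3 litters were higher with LPS. Neither passed the test, with log2 fold changes of 1.08 (SE 0.24, adjusted p = 0.106) and 0.74 (SE 0.35, adjusted p = 0.717). By the authors' normalized values the first probe did pass (log2 fold change 0.73, adjusted p = 0.0295).

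Birc3, the ubiquitin ligase of TNF receptor complexes, had log2 levels of 4.97, 6.51 and 6.28 in LPS-stimulated gliospheres, against 3.77, 2.87 and 2.63 in untreated gliospheres, where it was not above background. Set against the dimmest level that counted as above background on the untreated arrays, the mean of the LPS arrays was at least 2.24-fold higher. The fit did not pass (adjusted p = 0.326), and the arrays of each group spread widely (SD 0.83 with LPS and 0.60 without, n = 3 each). Quantile normalization in place of variance stabilisation brought the adjusted p to 0.0445, with a log2 fold change of 2.20. Birc3 passed in 4 of 13 other settings, over which its log2 fold change ran from 0.57 to 2.95. The bound above holds on the background-corrected scale used here. Without single arrays 0 of 9 fits passed (adjusted p 0.0591 to 0.799). Litter 1 differed by 1.19 and litters 2 and 3 by 3.64 and 3.65.

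Casp12 had log2 levels of 7.20, 7.30 and 6.88 in LPS-stimulated gliospheres, against 6.99, 6.75 and 6.70 in untreated gliospheres. The groups overlapped, and the log2 fold change was 0.31 (SE 0.26, adjusted p = 1). Casp1, the inflammasome caspase, stayed under the background with raw signals of 187.4, 137.5 and 130.7 in LPS-stimulated gliospheres, against 165.9, 155.0 and 181.5 in untreated gliospheres. No fold change between these 2 groups is given for Casp1.

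Since LPS-treated and untreated dishes came from the same litters, the comparison was repeated within litters. With the replicate number as a block over all 9 arrays the same 3 probes passed. With the litter as a block over the 6 gliosphere arrays alone, which leaves 2 residual degrees of freedom, the log2 fold changes stayed as above but none of the 11 probes passed. The adjusted p was then 0.0531 for Fas ILMN_2479290, 0.0531 for Casp4 ILMN_2811737 and 0.0649 for Casp4 ILMN_1254655. In that fit limma called 0 of the 14786 probes after adjustment, with 2323 at an unadjusted p under 0.05. With the authors' normalized values in the same blocked fit, 8 of the 11 probes passed. By those values the log2 fold change of Fas ILMN_2479290 was 1.60 and that of Casp4 ILMN_2811737 was 2.14.

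**Figure D2:**
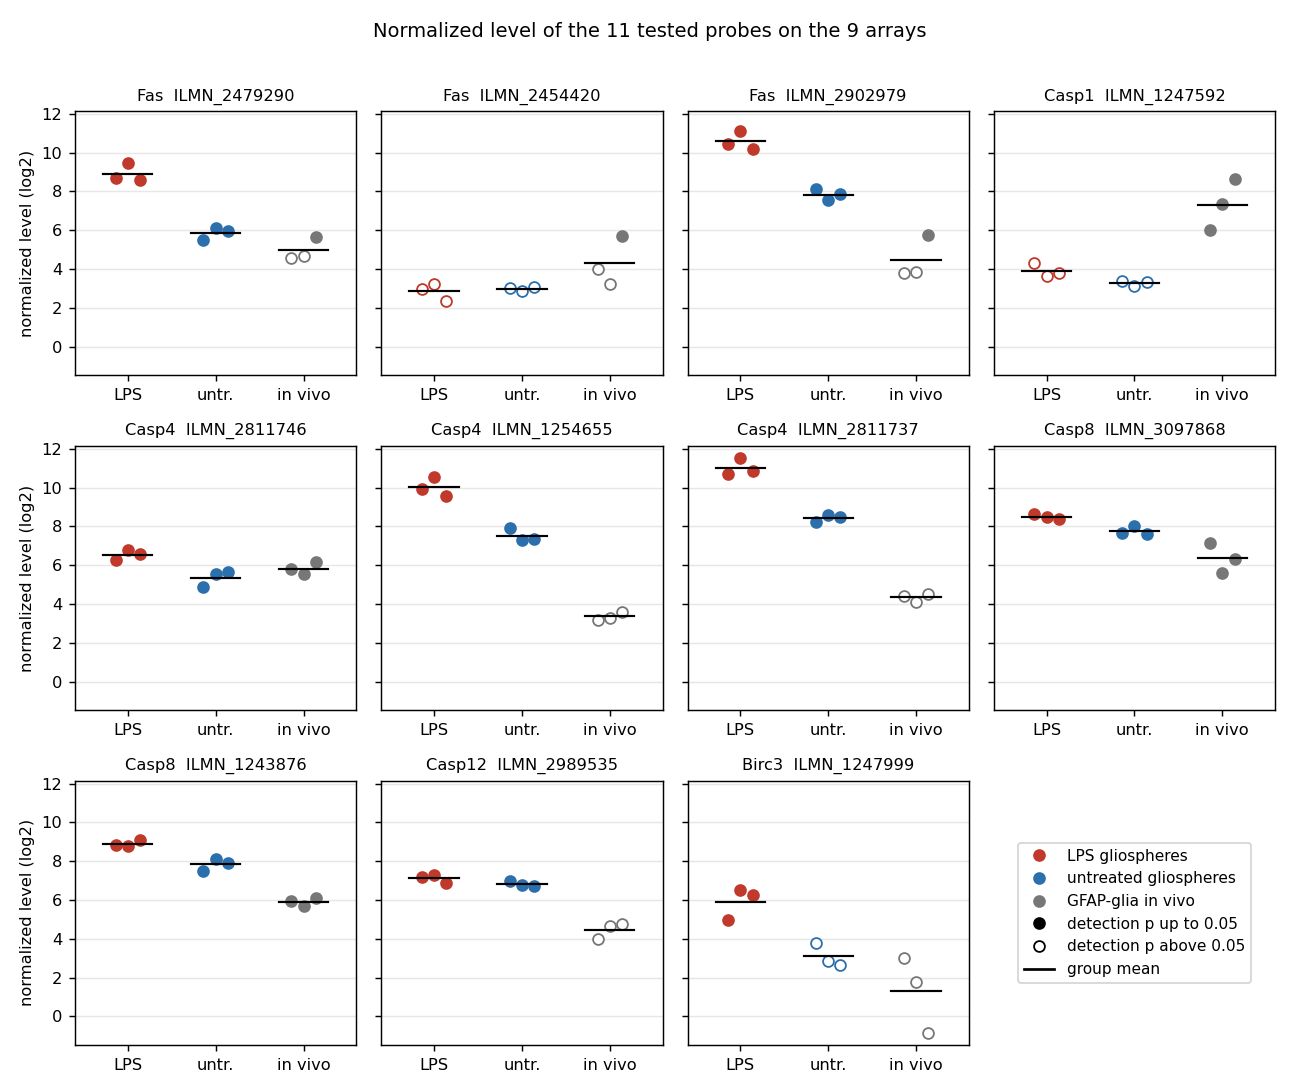
Normalized log2 level of the 11 tested probes by group (x axis), with a point for each array, filled where the probe was above background, and a line for the group mean. The 3 arrays of LPS-stimulated gliospheres lay above the 3 untreated arrays for Fas ILMN_2479290 and for all Casp4 probes, and Casp1 was high in GFAP-glia in vivo alone.

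**Figure D3:**
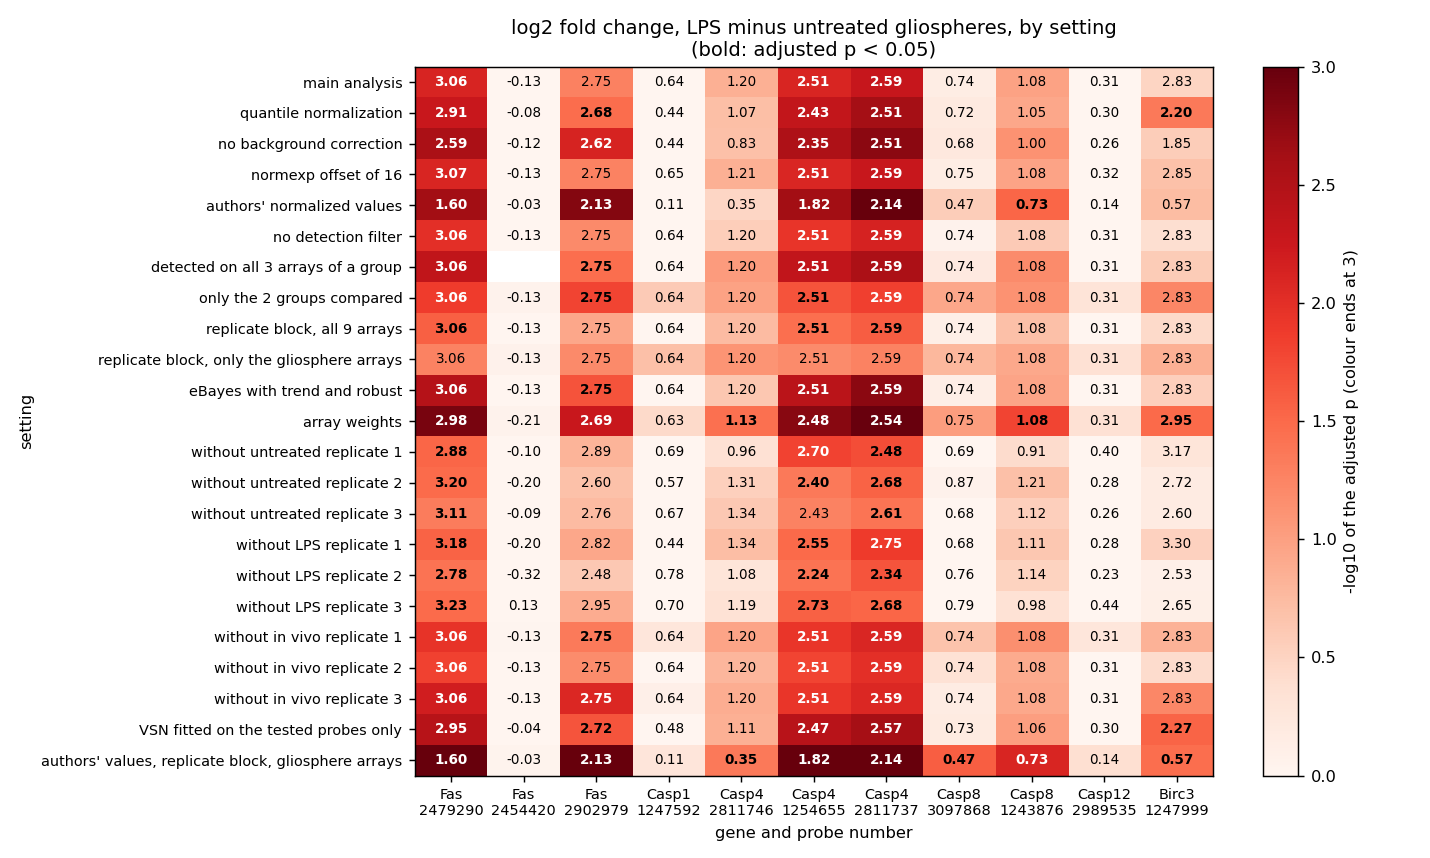
Log2 fold change between LPS-stimulated and untreated gliospheres for the 11 tested probes (columns) under each setting of the analysis (rows), coloured by the adjusted p and in bold where it was under 0.05. An empty cell is a probe that the setting left out. Fas ILMN_2479290 and Casp4 ILMN_2811737 passed in every row but the replicate block of the gliosphere arrays on the values used here.

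The second comparison sets untreated gliospheres against the GFAP-glia in vivo from which such cultures start. Casp8 and Casp12 were higher in the untreated gliospheres and Casp1 was lower, while Casp4 and Fas gave different answers by probe. Of the 11 tested probes, 6 were higher and 1 was lower, beside 13% and 11.8% of all tested probes. In either direction 7 of the 11 differed, 4 of them probes whose direction the filter had set (2 of Casp4, Casp12 and Casp1), beside 24.7% of all tested probes, and 9 had an unadjusted p under 0.05, beside 37.9%. The ranges lay apart for 6 higher and 2 lower probes, beside 22.9% and 18.1% of all tested probes. Both lower probes, Casp1 and Fas ILMN_2454420, had a direction set by the filter and were also among the 9. This comparison shares the untreated arrays with the first one.

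Casp1 had log2 levels of 3.37, 3.12 and 3.33 in untreated gliospheres, against 6.01, 7.34 and 8.63 in GFAP-glia in vivo. The groups were far apart, and the 3 in vivo arrays differed among themselves by more than any pair of gliosphere arrays. Untreated gliospheres were at least 5.94-fold lower, since the probe was not above background there (adjusted p = 9.84e-04, with the direction set by the filter). By the authors' normalized values the log2 fold change was -1.19 (adjusted p = 0.0195). Such bounds hold on the background-corrected scale used here.

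Casp4 showed the reverse. By ILMN_2811737 its log2 level was 8.20, 8.61 and 8.47 in untreated gliospheres, against 4.43, 4.10 and 4.49 in GFAP-glia in vivo, and by ILMN_1254655 it was 7.90, 7.29 and 7.36, against 3.18, 3.30 and 3.61. Neither probe was above background in GFAP-glia in vivo, and the untreated gliospheres were at least 11.82- and 6.31-fold higher (adjusted p = 2.21e-05 and 3.48e-05). By the authors' normalized values the log2 fold changes were 1.60 and 1.2, with both calls kept. The third probe went against them. ILMN_2811746 was above background on all 9 arrays, with 4.86, 5.55 and 5.63 in untreated gliospheres and 5.81, 5.53 and 6.14 in GFAP-glia in vivo. Its log2 fold change of -0.48 (SE 0.29) did not pass (adjusted p = 0.258).

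Casp12 had log2 levels of 6.99, 6.75 and 6.70 in untreated gliospheres, against 3.99, 4.67 and 4.74 in GFAP-glia in vivo, where it was not above background. The untreated gliospheres were at least 3.87-fold higher (adjusted p = 3.32e-04). By the authors' normalized values the log2 fold change was 0.65 (adjusted p = 0.00156). Of the 3 neighbouring caspase genes, Casp12 was thus higher and Casp1 lower in untreated gliospheres than in GFAP-glia in vivo. Casp4 was higher by ILMN_2811737 and ILMN_1254655 only. The filter had set the direction of each of these differences. Casp4 ILMN_2811746, above background on all 9 arrays, had a log2 fold change of -0.48 and did not pass.

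Casp8 had log2 levels of 5.97, 5.70 and 6.10 in GFAP-glia in vivo by ILMN_1243876, under the values of all untreated gliospheres given above. The log2 fold change was 1.91 (SE 0.24, adjusted p = 6.40e-04), or 3.76-fold, and 0.85 with the authors' normalized values (adjusted p = 0.00129). By ILMN_3097868 the in vivo arrays had 7.12, 5.62 and 6.31, and the log2 fold change was 1.40 (SE 0.35, adjusted p = 0.0194), or 0.63 with the authors' normalized values (adjusted p = 0.009). This second call was lost without untreated gliospheres replicate 1 (adjusted p = 0.0501) or replicate 2 (adjusted p = 0.0749), and when only the 6 arrays compared were fitted (adjusted p = 0.0587).

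Fas was above background on 1 of 3 in vivo arrays by each of its probes, and it was replicate 3 every time. By ILMN_2902979 the log2 level in GFAP-glia in vivo was 3.82, 3.87 and 5.77, and the untreated gliospheres were higher by 3.35 (SE 0.51, adjusted p = 0.00178), or by 1.14 with the authors' normalized values (adjusted p = 0.00388). By ILMN_2479290 the in vivo arrays had 4.59, 4.69 and 5.64, of which the third lay within the range of the untreated gliospheres. The log2 fold change of 0.87 (SE 0.37) did not pass (adjusted p = 0.116), but did without GFAP-glia in vivo replicate 3 (1.2, adjusted p = 0.037). By the third probe, ILMN_2454420, the in vivo arrays had 4.0, 3.25 and 5.68, against 3.04, 2.85 and 3.06 in untreated gliospheres below the background. No fold is given, and the fit did not pass (adjusted p = 0.107) except without GFAP-glia in vivo replicate 2 (adjusted p = 0.0277). The filter had set the direction of this probe as well. Birc3 was under the background in both groups. Its fit did not pass (adjusted p = 0.172), but did without GFAP-glia in vivo replicate 1 (adjusted p = 0.0433).

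The last comparison, of LPS-stimulated gliospheres with GFAP-glia in vivo, uses the same arrays again. Of the 11 probes, 8 were higher and 1 was lower, beside 14.8% and 13.4% of all tested probes, and 9 in either direction, beside 28.2%. For 5 of the 9 (2 probes of Casp4, Casp12, Birc3 and Casp1) the direction was set by the filter. The ranges lay apart for 9 higher and 2 lower probes, beside 24.5% and 19.2%, and all 11 had an unadjusted p under 0.05, beside 40% of all tested probes. Both lower probes, Casp1 and Fas ILMN_2454420, had a direction set by the filter. Casp4 was at least 71.3- and 35.9-fold higher by ILMN_2811737 and ILMN_1254655 (adjusted p = 2.79e-06 and 3.44e-06), and Casp12 at least 4.81-fold higher (adjusted p = 1.23e-04). Fas was higher by 3.93 (SE 0.37) and 6.10 (SE 0.51) on the log2 scale by ILMN_2479290 and ILMN_2902979 (adjusted p = 8.53e-05 and 5.14e-05). Casp8 was higher by 2.99 (SE 0.24) and 2.14 (SE 0.35) by ILMN_1243876 and ILMN_3097868 (adjusted p = 4.34e-05 and 0.00216). Birc3 had log2 levels of 3.03, 1.78 and -0.85 in GFAP-glia in vivo, all below the background, and LPS-stimulated gliospheres exceeded them at least 2.08-fold (adjusted p = 0.00455), a direction that the filter had set. Fas ILMN_2454420, above background on 1 of these 6 arrays, did not pass (adjusted p = 0.0757) except without GFAP-glia in vivo replicate 2 (adjusted p = 0.0198). Casp1 was at least 5.70-fold lower (adjusted p = 0.00199), so that LPS-stimulated gliospheres, like untreated ones, lay under the background where all 3 in vivo arrays were above it. By the authors' normalized values the log2 fold changes were 3.74 and 3.02 for these Casp4 probes, 1.8 and 3.28 for these Fas probes, 1.58 and 1.1 for these Casp8 probes, 0.79 for Casp12, 0.80 for Birc3 and -1.08 for Casp1, all past the test.

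**Figure D4:**
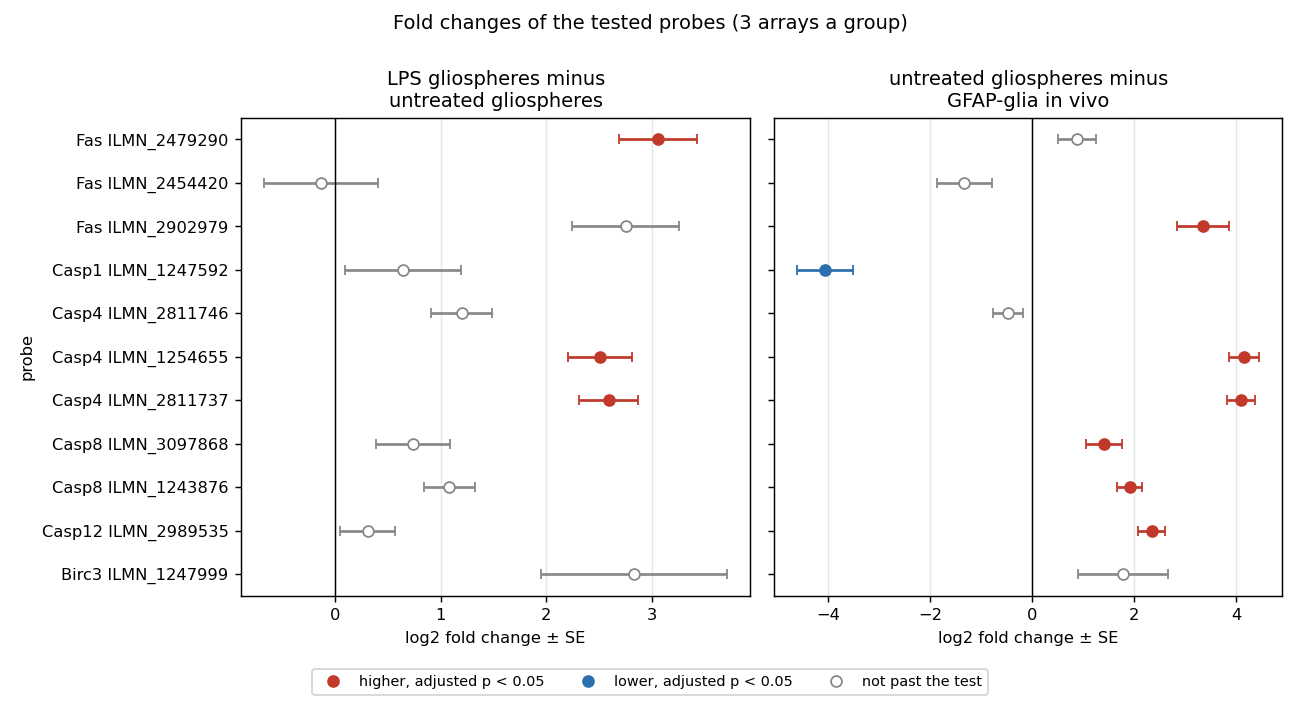
Log2 fold change (x axis, point) with its standard error (bar) of the 11 tested probes, for LPS-stimulated minus untreated gliospheres (left) and untreated gliospheres minus GFAP-glia in vivo (right), 3 arrays a group. Filled points had an adjusted p under 0.05. Of these, 1 Fas and 2 Casp4 probes lay above 0 on the left, and on the right Casp1 was the 1 filled point below 0, beside unfilled ones such as Casp4 ILMN_2811746 at -0.48.

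Ordered by level within a probe, Casp4 ILMN_2811737 and ILMN_1254655, both Casp8 probes and Fas ILMN_2902979 ran from LPS-stimulated over untreated gliospheres to GFAP-glia in vivo, without overlap. By group means alone, Fas ILMN_2479290 and Casp12 ran in this order too. Birc3 was under the background in untreated gliospheres and GFAP-glia in vivo, so no order is read between them. For these Casp4 probes each step passed the test, whereas for both Casp8 probes the first step did not. The direction of the second step of these Casp4 probes was set by the filter. The third Casp4 probe, ILMN_2811746, did not run in this order, with mean log2 levels of 6.55, 5.35 and 5.82. For Fas ILMN_2479290 the step between LPS-stimulated and untreated gliospheres passed and the next one did not, and for Fas ILMN_2902979 it was the other way round. For Casp12 the gliosphere groups did not differ beyond their spread.

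The cell types on the arrays bear on these values. Gfap, the marker by which the cells were labelled, was above background on 3 of 3 arrays of LPS-stimulated gliospheres, 3 of 3 of untreated gliospheres and 0 of 3 of GFAP-glia in vivo, and S100b on 2, 3 and 2 arrays in the same sequence. The third tested enteric glial marker, Fabp7, was above background on 0, 0 and 2 arrays. Relative to GFAP-glia in vivo, untreated gliospheres had Gfap at least 9.71-fold higher and Fabp7 at least 1.37-fold lower (adjusted p = 1.74e-04 and 0.0172). The filter had set both directions. S100b did not pass (adjusted p = 0.12). The 3 markers summed to 404 to 500 with LPS, 316 to 642 without and 52 to 129 in GFAP-glia in vivo. No probe was named Sox10 here. Of 7 tested macrophage and leukocyte markers, 4 were above background on at least 1 array of LPS-stimulated gliospheres, 4 of untreated gliospheres and 7 of GFAP-glia in vivo. On all 3 arrays of the group these counts were 4, 3 and 4. Their summed linear level was 1132 to 3280 with LPS, against 430 to 837 without, and 1298 to 1580 in GFAP-glia in vivo. These sums describe a list. The size of a term in them does not rank genes by amount of RNA, since levels are compared within a probe only. Lyz1 was their largest term on every LPS array and Adgre1 on every in vivo array. Between LPS-stimulated and untreated gliospheres Lyz1 had a log2 fold change of 2.32 (adjusted p = 0.198) and Adgre1 one of -0.98 (adjusted p = 0.93), and none of these 7 genes passed the test between the 2 gliosphere groups. The defining leukocyte marker Ptprc was above background on none of the 9 arrays. Among the genes above background in vivo only were Cd3e, Cd79a and Fcer1g of leukocytes (on 3, 2 and 1 of 3 arrays), and Myh11 and Des of smooth muscle. In untreated gliospheres relative to GFAP-glia in vivo 3 of the 7 leukocyte markers fell and 1 rose. Named after their values were seen, these were Adgre1 (log2 fold change -2.94, adjusted p = 0.00722), Cd3e (adjusted p = 0.00144) and Cd79a (adjusted p = 0.0116), and on the other side Lyz1 (2.26, adjusted p = 0.0258). Myh11 was at least 33.1-fold lower and Des at least 9.94-fold lower (adjusted p = 2.14e-04 and 3.30e-04). Cd3e, Cd79a, Myh11 and Des entered the test only through the in vivo arrays. The filter thus set their direction, and their tests are no independent support for it. The part of such cells in the Casp1 value was not tested. The summed level of 8 smooth muscle and fibroblast markers was 11707 to 14661 with LPS, 5579 to 9582 without and 10943 to 32894 in GFAP-glia in vivo. Of these 8, the fibroblast gene Dcn, also named after its values were seen, rose with LPS (log2 fold change 2.80, adjusted p = 0.033). Acta2, above background on all 9 arrays, had a log2 fold change of -1.07 with LPS, with ranges apart, and did not pass (adjusted p = 0.399). The 5 tested enteric neuron markers summed to 11760 to 13148 with LPS, 9562 to 13892 without and 16791 to 23545 in GFAP-glia in vivo. In bulk RNA, fewer cells of a type and less RNA per cell cannot be told apart, and the part of these cells in the results above was not tested.

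The other genes of the pathway were taken from fixed lists. Of 93 listed genes, 77 had a named probe and 52 were tested, each by its probe with the highest mean level. With LPS 1 of the 52 rose and none fell, or 1.92%, beside 0.805% of all tested probes. The list's medians and those of all probes are descriptions, the median over all tested probes being 0.00 on the log2 scale.

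The gene that rose was Tnfaip3, the deubiquitinase A20 that limits TNF receptor and NF-kB signalling. It had a log2 level of 8.76 ± 0.35 in LPS-stimulated gliospheres, against 5.68 ± 0.38 in untreated gliospheres (SD, n = 3 each), with a log2 fold change of 3.08 (SE 0.44, adjusted p = 0.017). The call was lost without untreated gliospheres replicate 2 (adjusted p = 0.0899) or 3 (0.0846), without LPS-stimulated gliospheres replicate 2 (0.0974) or 3 (0.0623), and with the litter block over the gliosphere arrays (0.0531). By the authors' normalized values the log2 fold change was 1.52. Its list of death receptor adaptors and kinases otherwise held 11 genes that did not pass, and its median was 0.21. Among the 11, Mlkl had a log2 fold change of 1.70 (SE 0.32, adjusted p = 0.0567), with ranges apart. It passed under some other settings, among them quantile normalization (adjusted p = 0.0246) and the authors' normalized values (0.0132).

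No other list held a gene past the test with LPS. Among 9 tested death ligands and receptors the median was 0.56, with 0.79 for the decoy receptor gene Tnfrsf22 (adjusted p = 0.518). Tnfsf15 (adjusted p = 0.89) was above background on 1 of 3 LPS and 0 of 3 untreated arrays, and no fold is given. Of the 6 tested IAPs and IAP antagonists, Birc2, the neighbour and closest relative of Birc3, had 1.39 (SE 0.26, adjusted p = 0.0542) and Birc5, an IAP of dividing cells, -0.92 (adjusted p = 0.906). Birc2 passed under some other settings, among them quantile normalization (adjusted p = 0.0262) and the authors' normalized values (0.00637). None of the 3 other caspases passed, with Casp6 at 0.26 and Casp2 at -0.22 (adjusted p = 1 for both). In the inflammasome list 12 of the 16 genes with a named probe were above background on no array. Of its 4 tested genes, the cytokine gene Il18 had 1.48 (SE 0.47, adjusted p = 0.34) and the gasdermin gene Gsdmd, whose product is cut by caspase-11, 0.78 (SE 0.35, adjusted p = 0.672). The 13 tested genes of the Bcl2 family, which governs release of cytochrome c, had a median of 0.09, with the pro-apoptotic Bik at 1.16 (adjusted p = 0.248) and Bmf at -0.78 (adjusted p = 0.921). Of 5 genes of the apoptosome and of caspase targets, Aifm1 had 0.36 and the cytochrome c gene Cycs -0.33 (adjusted p = 1 for both).

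Between untreated gliospheres and GFAP-glia in vivo 10 of the 52 genes were higher and 2 lower, 23.1% in all, which is close to the 24.7% of all tested probes. The median over all tested probes was 0.09. The receptors that rose were Tnfrsf12a by 2.45 (SE 0.28, adjusted p = 3.97e-04) and the main TNF receptor Tnfrsf1a, which was under the background in vivo and at least 3.12-fold higher (adjusted p = 4.55e-04). Mlkl, the pore-forming effector of necroptosis, was likewise under the background in vivo and at least 2.11-fold higher (adjusted p = 4.81e-04). By the authors' normalized values the log2 fold changes were 0.55 for Tnfrsf1a and 0.57 for Mlkl (adjusted p = 0.00276 and 0.00379). Traf5, an adaptor of TNF receptors, also passed (adjusted p = 0.00496), but was above background on only 1 of 3 untreated and 0 of 3 in vivo arrays, and no fold is given. The filter had set the direction for Tnfrsf1a, Mlkl and Traf5, which count among the 10 higher genes. Casp6, an executioner caspase, was 4.24-fold higher (log2 fold change 2.09, SE 0.29, adjusted p = 0.00114).

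In the Bcl2 family 4 of 13 genes rose and none fell, beside 13% and 11.8% of all tested probes, and no more is read from this count. They were Bcl2l1, which protects mitochondria (1.71, SE 0.37, adjusted p = 0.00924), and 3 pro-apoptotic members, Bcl2l11 (1.63, SE 0.23, adjusted p = 0.00131), Bbc3 (1.49, SE 0.34, adjusted p = 0.0119) and Bid, a substrate of Casp8 (1.44, SE 0.36, adjusted p = 0.0179). Apaf1, the scaffold of the apoptosome, rose by 1.04 (SE 0.27, adjusted p = 0.0215). The mitochondrial IAP antagonists went the other way, with Diablo at -2.15 (SE 0.23, adjusted p = 2.40e-04) and Htra2 at -1.0 (SE 0.26, adjusted p = 0.023). Bid and Apaf1 lost the call without untreated gliospheres replicate 1 (adjusted p = 0.063 and 0.0736) or replicate 3 (0.0679 and 0.077), and Htra2 without replicate 1 (0.0849) or replicate 2 (0.0524). None of the 4 tested inflammasome genes passed, Gsdmd standing at -0.46 (adjusted p = 0.37) and the pattern receptor gene Nod1 at 0.07 (adjusted p = 0.887).

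**Figure D5:**
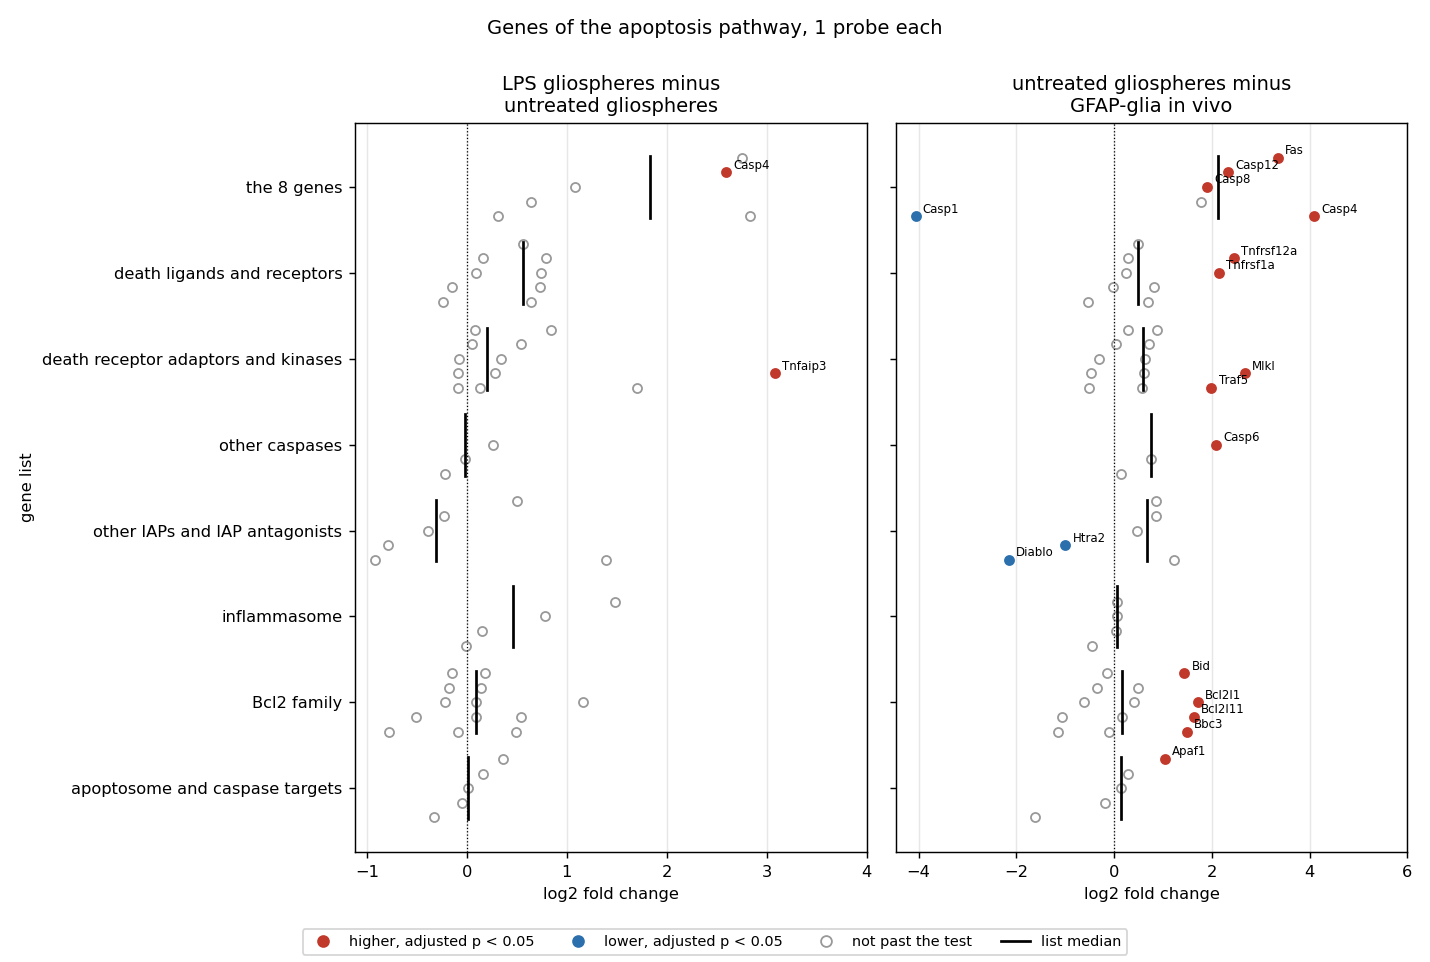
Log2 fold change (x axis) of each tested gene of the pathway lists (y axis), read by its probe with the highest mean level, for LPS-stimulated minus untreated gliospheres (left) and untreated gliospheres minus GFAP-glia in vivo (right). Coloured points had an adjusted p under 0.05 and black lines are list medians. With LPS only Casp4 and Tnfaip3 are coloured, because Fas is drawn by ILMN_2902979.

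The genes whose levels ran most like the 2 genes that rose were found by Pearson's r over the 9 arrays, which carry the 3 groups, and are given as a description. Fas ILMN_2479290 was followed most closely by Tnfaip2 (r = 0.987), the oxysterol receptor gene Nr1h3 (r = 0.986) and the proteoglycan gene Sdc4 (r = 0.986). Their log2 fold changes with LPS were 4.13 (adjusted p = 0.00216), 3.89 (adjusted p = 0.00753) and 1.47 (adjusted p = 0.0601). Casp4 ILMN_2811737 was followed by Sec63 (r = 0.997), which acts in protein import into the endoplasmic reticulum, the lipid flippase gene Atp8b1 (r = 0.996) and the transcription factor gene Runx1 (r = 0.994). Of these, Atp8b1 rose by 2.15 (adjusted p = 0.0133) and Runx1 by 1.85 (adjusted p = 0.018) with LPS. Sec63 had 0.42 (adjusted p = 0.659).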

How the data were processed

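RNA of 9 samples, 3 per group, had been hybridised to MouseRef-8 v2.0 bead arrays. The deposited table holds raw signal intensity and a detection p-value per probe as GenomeStudio wrote them (version not given in the sources used here), and a further table holds the authors' normalized intensity, whose array medians were 164.2 to 164.4 and whose values of the same rank differed between arrays by at most 1.0216 times, as after quantile normalization, although the methods name VSN. In both, decimal points were missing from most cells. They were put back from the rising relation between the 2 tables, and 10 of 25697 probes that could not be settled were left out. Of 231273 simulated cells, 230933 came back right.

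Following the methods, intensity was corrected by normexp (limma 3.58.1 in R 4.3.3) with detection p-values, normalized by variance stabilisation fitted in own R code, and kept at detection p up to 0.05 on at least 1 array with a gene symbol. The methods also dropped probes known to perform badly, which was not done here. Symbols came from the gene identifier for 23953 probes and from the platform symbol for 16, and 1718 had none here. lmFit and eBayes were run on all 9 arrays (6 residual degrees of freedom), with Benjamini-Hochberg adjustment over 14786 probes. The median SD per probe was 0.451, and 0.279 among the gliospheres. The number of arrays limits the precision. The fit was tested on simulated data. Lower bounds of a fold set the mean of the brighter group against the mean of, per array, the dimmest probe above background or the probe's own level where higher.

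The deposited design gives 1 litter per replicate number. Within a litter, the departures of the LPS-treated and the untreated array from their group means had correlations of 0.14, 0.08 and 0.16, and of -0.13 to -0.02 between litters, and the litter block was run as an alternative. Members, lists and tests were chosen with earlier results of these data known. Named were all probes of the 8 genes, up to 4 genes per list past the test with the largest change (up to 2 where none passed) and the 3 genes most like each gene that rose. Alternatives were the normalization, background, filter, arrays fitted, block, moderation, array weights and leaving out each array, with normalization and filter kept as they were when arrays were left out. Added after seeing the data were the VSN fitted on tested probes and the authors' values with the litter block. Promoters were scanned in Python 3.11.15 with numpy 2.4.6 and pandas 2.3.3, and figures drawn with matplotlib 3.10.9.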

Additional observations from a re-analysis of the deposited data

How the results depend on the processing

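The 3 probes that passed between LPS-stimulated and untreated gliospheres became 5 with quantile normalization, 5 with the authors' normalized values, 7 with array weights and 5 with the VSN fitted on the tested probes only, and 0 with the replicate block of the gliosphere arrays, or 8 there with the authors' values. Leaving out single arrays gave 2 to 4 probes. Of the listed pathway genes, 1 passed, against 3 with quantile normalization, no background correction, the authors' values, detection on all 3 arrays of a group, array weights or the VSN of tested probes, 2 with the 2 groups alone or with trend and robust moderation, 0 with the replicate block of the gliosphere arrays and 4 there with the authors' values, and 0 to 2 without single arrays. Fas ILMN_2454420, below background in both groups, had -0.13, turned to 0.13 without LPS-stimulated gliospheres replicate 3 and lay between -0.32 and 0.13 without single arrays. Over all probes 119 passed between these groups, against 411 with array weights, 199 with the 2 groups alone, 983 with the authors' values and the block, 0 with the block of the gliosphere arrays, and 34 to 211 without single arrays. Between untreated gliospheres and GFAP-glia in vivo 2348 to 4608 probes passed without single arrays, against 3659. The cause of these shifts was not tested. The replicate block over all 9 arrays changed no call of the 11 probes. With 3 arrays a group, dim probes such as Birc3 and the Cflar and Tnfrsf1b probes are limited by the background.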
